A study of Mus musculus with 3 samples.

Results

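The 10 genes that carry the signal of Toll-like receptors from the membrane to the first kinase complexes were examined for Foxp3 peaks. They were Myd88, Tirap, Ticam1 and Ticam2, which encode the adaptor proteins, Irak1, Irak2, Irak3 and Irak4, which encode the interleukin-1 receptor-associated kinases, and Traf6 and Map3k7, which encode the ubiquitin ligase TRAF6 and the kinase TAK1. The genes were chosen by their place in the pathway, and 10 of 21627 protein-coding genes were members. Every peak over a member gene or within 5 kb of either annotated end was counted, with gene positions from RefSeq (GRCm38.p6, the assembly whose chromosome coordinates are those of mm10).

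The study used CUT&RUN, in which an antibody tethers a nuclease to chromatin and the released fragments are sequenced, on mouse bone marrow-derived macrophages grown in medium conditioned with M-CSF and fixed in 0.1% formaldehyde for 2 min. Of its 3 samples, 2 were made with the Foxp3 antibody FJK-16s (replicates 1 and 2) and 1 with an isotype IgG, whose values were not analysed here. The series title names stimulation by damage-associated molecules from brain, which the sample labels assign to no library, and the labels give no strain, genotype, sex or age. No label ties either replicate to its own culture or mouse, so the spread between them may be technical. With 1 group of 2 libraries and no control values, the results are descriptions and no test was made.

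A Toll-like receptor that binds its ligand recruits adaptors through a shared domain, the TIR domain. TIRAP bridges some receptors to MyD88, which assembles IRAK4 with IRAK1 or IRAK2, and these kinases pass the signal to TRAF6. TRAF6 builds ubiquitin chains that bring in TAK1, which activates the IkappaB kinases and the MAP kinases. TRAM (Ticam2) and TRIF (Ticam1) form the other branch, which leads to interferon regulatory factors. IRAK3, also called IRAK-M, is known in macrophages as a brake on this pathway. Foxp3 is a forkhead transcription factor known best from regulatory T cells.

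At 5 of the 9 members with a RefSeq transcription start, a peak of each replicate covered the start: Tirap, Irak3, Irak4, Traf6 and Map3k7. In 4 of these the covering peaks also overlapped by at least 50% of both lengths. For these 4, the 250 bases before the start are given here, because peaks of both replicates reached into them. Both peaks spanned the whole window at Map3k7 alone. At Tirap, Irak3 and Traf6 part of the window lay outside the peak of at least 1 replicate. The sequences are those of RefSeq (GRCm38.p6), written 5′ to 3′ on the strand of the gene, and capitals mark letters that match one of the 9 words searched. The upstream bases of Irak2 are added for contrast, a choice made after its values were seen, because its start carried the strongest replicate 1 peak of all members and no replicate 2 peak.
Tirap (chr9:35199966-35200215, minus strand): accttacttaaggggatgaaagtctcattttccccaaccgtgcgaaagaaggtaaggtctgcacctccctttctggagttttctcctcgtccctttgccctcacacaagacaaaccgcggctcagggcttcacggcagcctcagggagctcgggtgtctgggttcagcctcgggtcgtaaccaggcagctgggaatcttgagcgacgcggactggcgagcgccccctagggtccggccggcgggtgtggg
Irak3 (chr10:120201598-120201847, minus strand): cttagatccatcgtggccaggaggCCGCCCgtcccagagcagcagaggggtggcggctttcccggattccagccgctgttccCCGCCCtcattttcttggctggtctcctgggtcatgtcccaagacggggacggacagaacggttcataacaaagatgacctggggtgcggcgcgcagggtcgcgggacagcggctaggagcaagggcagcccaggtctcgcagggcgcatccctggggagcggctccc
Traf6 (chr2:101678170-101678419, plus strand): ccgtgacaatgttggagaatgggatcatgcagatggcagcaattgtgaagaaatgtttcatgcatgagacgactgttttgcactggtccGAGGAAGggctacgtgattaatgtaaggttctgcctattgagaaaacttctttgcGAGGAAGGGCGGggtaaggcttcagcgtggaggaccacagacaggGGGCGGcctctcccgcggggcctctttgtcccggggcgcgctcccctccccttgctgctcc
Map3k7 (chr4:31963857-31964106, plus strand): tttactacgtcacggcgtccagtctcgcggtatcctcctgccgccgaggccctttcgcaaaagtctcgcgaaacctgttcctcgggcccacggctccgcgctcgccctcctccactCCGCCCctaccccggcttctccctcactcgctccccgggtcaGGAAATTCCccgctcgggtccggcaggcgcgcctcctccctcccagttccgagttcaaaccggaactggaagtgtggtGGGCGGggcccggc
Irak2 (chr6:113638217-113638466, plus strand): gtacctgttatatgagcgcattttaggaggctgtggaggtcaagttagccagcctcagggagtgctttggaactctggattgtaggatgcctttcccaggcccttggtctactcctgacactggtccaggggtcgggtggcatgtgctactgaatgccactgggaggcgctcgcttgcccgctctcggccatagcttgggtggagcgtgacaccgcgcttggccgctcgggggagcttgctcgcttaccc

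The bases shown for Tirap, Irak3 and Map3k7 lie inside the annotated spans of these genes, since each annotated gene begins further upstream. Tirap has a second start, 35199905, also covered in both replicates, and the window of the more upstream start is the one printed. None of the 5 sequences holds the forkhead word TGTTTNC or the TTTG repeat TTTGTTTG on either strand. In Traf6 the capitals mark 2 copies of GAGGAAG, a word bound by the macrophage factor PU.1, and 2 copies of the GC box GGGCGG, a word of Sp1-type factors. The second PU.1 word and the first GC box share letters, so they stand as 1 run of capitals. Map3k7 holds 2 GC boxes and the NF-kappaB word GGNNNTTCC, which reads as a match on both strands at the same bases. Irak3 holds 2 GC boxes on the reverse strand, while the sequences printed for Tirap and Irak2 hold none of the 9 words. The window of the second Tirap start, which is not printed, holds an ETS word at position -17, an NF-kappaB word at -21 and a GC box at -42.

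Across all 21044 upstream windows of the same length, the forkhead word occurred in 16.1%, the GC box in 43.0%, the PU.1 word in 10.4% and the NF-kappaB word in 16.4%. Windows whose start was covered by a peak of each replicate held the forkhead word in 9.27% and the GC box in 72.6%, against 19.4% and 28.7% of the other windows. Base composition differed in the same way. The median GC content was 64.8% in covered windows and 51.2% in the others, and the median ratio of observed to expected CpG was 0.796 and 0.328. Map3k7 had a GC content of 68.0% and a CpG ratio of 1.03, while Traf6 had 56.4% and 0.669, against medians of 55.6% and 0.537 over all windows. Irak2, with 60% and 0.539, lay between the covered and the other windows in both measures. Among the members, the 1 forkhead match was in the window of the more upstream of the Irak3 starts, which a replicate 1 peak of 4.14-fold covered and no replicate 2 peak did. The other words searched were ETS (CCGGAAG), AP-1 (TGANTCA), CRE (TGACGTCA) and the TATA box (TATAAA). The ETS word occurred in 9.07% of all windows, 14.7% of covered windows and 6.33% of the others. For the PU.1 word the shares of covered and other windows were 9.88% and 10.6%, and for the NF-kappaB word 17.8% and 15.8%. A match describes letters in a window and does not show that a factor was bound.

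All 10 members had a peak of each replicate over the gene or within 5 kb of it, as did 82.7% of protein-coding genes. Overlapping peaks of the replicates, with at least 50% of both lengths in common, were found at 7 of 10 members, against 63.5% of genes. The exceptions were Ticam2, Irak1 and Irak4. A peak of each replicate lay within 1 kb of the same gene end at 8 members, all but Ticam1 and Irak2, against 61.0% of genes. At starts, 5 of 9 members had the start itself covered in both replicates, as did 36.4% of the 17273 genes with a RefSeq start. Of the 5, Irak4 was counted by the edge of its replicate 2 peak. Within 1 kb of the start, 7 of 9 members had a peak of each replicate, as did 61.0% of the same 17273 genes. Each count was above the share of genes set beside it, and 9 or 10 genes are too few to read a difference from it.

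Replicate 1 held 33294105 fragments and 556535 peaks, and replicate 2 held 34898401 fragments and 95135 peaks, so the fragment numbers were alike while the lists differed in length. Fragment sizes were 130 bp and 180 bp. The genome-wide background terms, each the expected fragments plus 1, were 3.78 and 5.09, so coverage per base was higher in replicate 2. Over the members, replicate 1 listed 133 peaks and replicate 2 listed 31. The median over members was 3.56 peaks per 10 kb in replicate 1, from 2.00 at Map3k7 to 6.36 at Ticam1, against a median of 3.06 over all genes. In replicate 2 the median was 0.805, from 0.380 at Ticam2 to 1.73 at Ticam1, against 0.616. The fold enrichment used below is the authors' value for each peak, the fragments at the summit plus 1 over the library's own background term. This term is the larger of a genome-wide and a nearby estimate of the expected fragments, plus 1. The fold and the pileup (the number of fragments at the summit) describe bulk material, in which more cells with a site and more fragments per cell cannot be told apart.

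**Figure D1:**
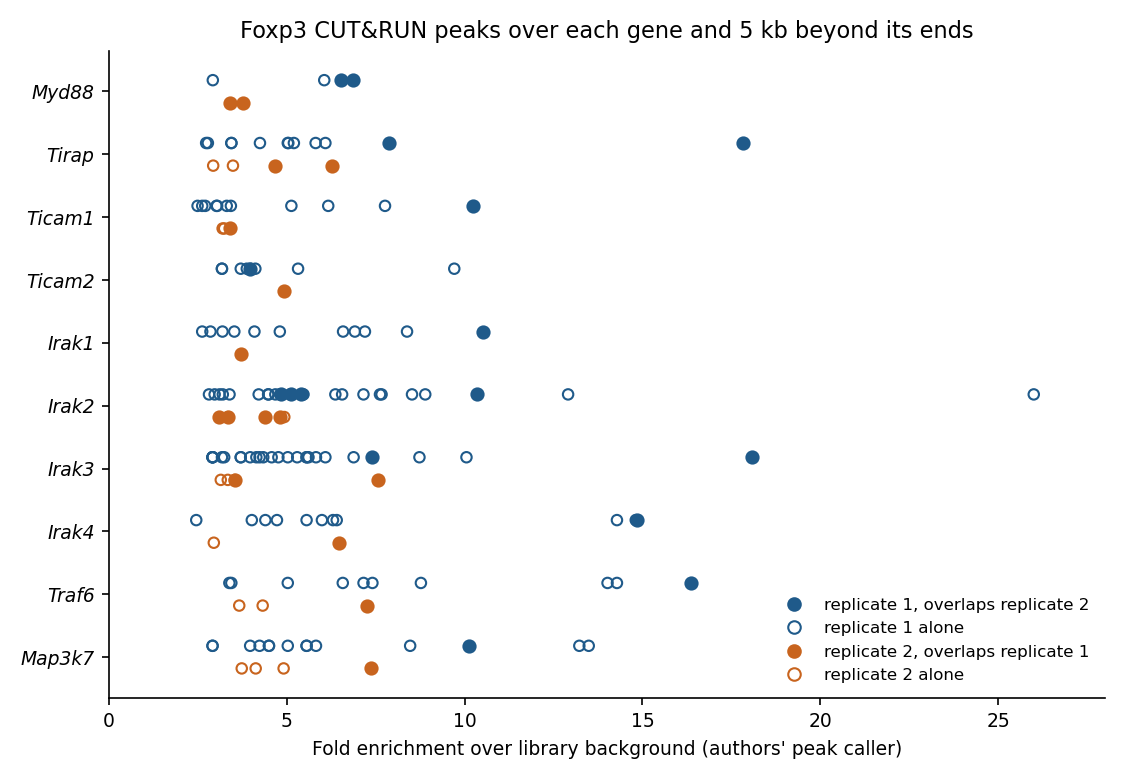
Fold enrichment (horizontal axis) of every Foxp3 peak over each member gene and 5 kb beyond its ends, with replicate 1 in blue and replicate 2 in orange. Filled points overlap a peak of the other replicate by at least 1 bp. The highest point of all, 26.0-fold at Irak2, is an open replicate 1 point, whereas the strongest replicate 2 point is filled at every member except Irak2.

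Of the adaptor genes, Tirap had the highest deposited fold in both replicates. By pileup, Ticam1 was higher in replicate 1 (88 fragments against 72) and Myd88 in replicate 2 (34 against 33). The Tirap peaks covered both annotated starts of the gene (chr9:35199583-35200181 in replicate 1, chr9:35199698-35200088 in replicate 2), with 17.8-fold enrichment and 72 fragments in replicate 1 and 6.26-fold and 33 fragments in replicate 2 (mean 12.0 ± 8.19, SD, n = 2). The summits lay 5 bp and 18 bp inside the gene from the nearer start, and no end of another protein-coding gene was within 1 kb. The nearer start was 35199905 in replicate 1 and 35199965 in replicate 2, and the summits were 47 bp apart. The peaks therefore do not tell these starts apart. They stood at the 99.0th percentile of fold in the list of replicate 1 and the 92.0th in that of replicate 2. A second overlapping pair lay inside Tirap, 11147 bp and 11144 bp from start 35199905, with summits 3 bp apart. Its fold was 7.88 with 31 fragments in replicate 1 and 4.67 with 23 fragments in replicate 2. The gene (chr9:35184391-35200291, minus strand) and its 5 kb flanks held 12 peaks in replicate 1 and 4 in replicate 2, of which 8 and 4 were over the gene alone.

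Myd88, the adaptor common to most Toll-like receptors, had 4 peaks in replicate 1 and 2 in replicate 2 over its span (chr9:119335934-119340018, minus strand) and flanks, of which 1 in each replicate was over the gene alone. The pair at its start had 6.53-fold enrichment with 60 fragments in replicate 1 and 3.41-fold with 28 fragments in replicate 2 (mean 4.97 ± 2.21, SD, n = 2). The peak of replicate 1 covered the start, and that of replicate 2 ended 65 bp inside the gene. The other pair, at 6.85-fold with 72 fragments and 3.77-fold with 34 fragments, covered the start of the neighbouring gene Acaa1a, with summits 347 bp and 421 bp inside Acaa1a. It was the stronger of the pairs in both replicates, so the strongest peaks counted for Myd88 were at the start of another gene. By its strongest fold, Myd88 ranked at or above 13.4% of genes in replicate 1 and 24.7% in replicate 2, the lowest of the members in replicate 1.

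The local background around Myd88 was high. The background term at its start peak was 9.34 in replicate 1 and 8.51 in replicate 2, against genome-wide terms of 3.78 and 5.09. Recomputed with the genome-wide term, the same peak came to 16.1-fold and 5.69-fold. With that term for every peak of every gene, the rank of Myd88 by its strongest peak became 50.2% and 58.6%. At Map3k7 the start peak had fewer fragments than at Myd88 in replicate 1 (41 against 60) but a higher deposited fold (10.1 against 6.53). In replicate 2 Map3k7 was the higher in both measures, with 38 against 28 fragments and 7.38-fold against 3.41-fold.

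Ticam1, which encodes TRIF, had no start covered in either replicate. Its replicate 1 peak nearest to the start ended 35 bp inside the gene with 5.13-fold enrichment and 42 fragments, and the nearest replicate 2 peak was 2965 bp inside. That replicate 2 peak paired with the strongest replicate 1 peak of the gene, inside it at chr17:56273630-56273783. The summits lay 3053 bp and 3063 bp from the start, 10 bp apart. Fold was 10.2 with 88 fragments in replicate 1 and 3.41 with 21 fragments in replicate 2, the largest ratio between replicates among the member pairs (3.0). Peak density over Ticam1 was the highest of the members in both replicates, with 11 and 3 peaks over 17.3 kb, at or above 97.4% and 92.9% of genes. These counts depend on the window: over the gene alone they were 6 and 2 peaks, and Irak1 was then denser in replicate 1, with 8.99 against 8.21 peaks per 10 kb. No replicate 2 peak of Ticam1 reached a −log10 q of 5. Most of these peaks were weak: the median fold was 3.31 in replicate 1 and 3.24 in replicate 2.

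Ticam2, which encodes TRAM, the partner of TRIF at the receptor TLR4, had 9 peaks in replicate 1 and 1 in replicate 2 over its span (chr18:46558231-46574533) and flanks. The strongest replicate 1 peak, 9.71-fold with 36 fragments, covered the higher end of the gene. The replicate 2 peak, 4.91-fold with 24 fragments, lay beyond that end, at chr18:46575151-46575417, and touched only a weaker replicate 1 peak of 3.97-fold and 14 fragments by 45 bp. Ticam2 was the member for which replicate 2 had the higher fold where peaks met. No strand or start was used for this gene, so its ends were not told apart.

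**Figure D2:**
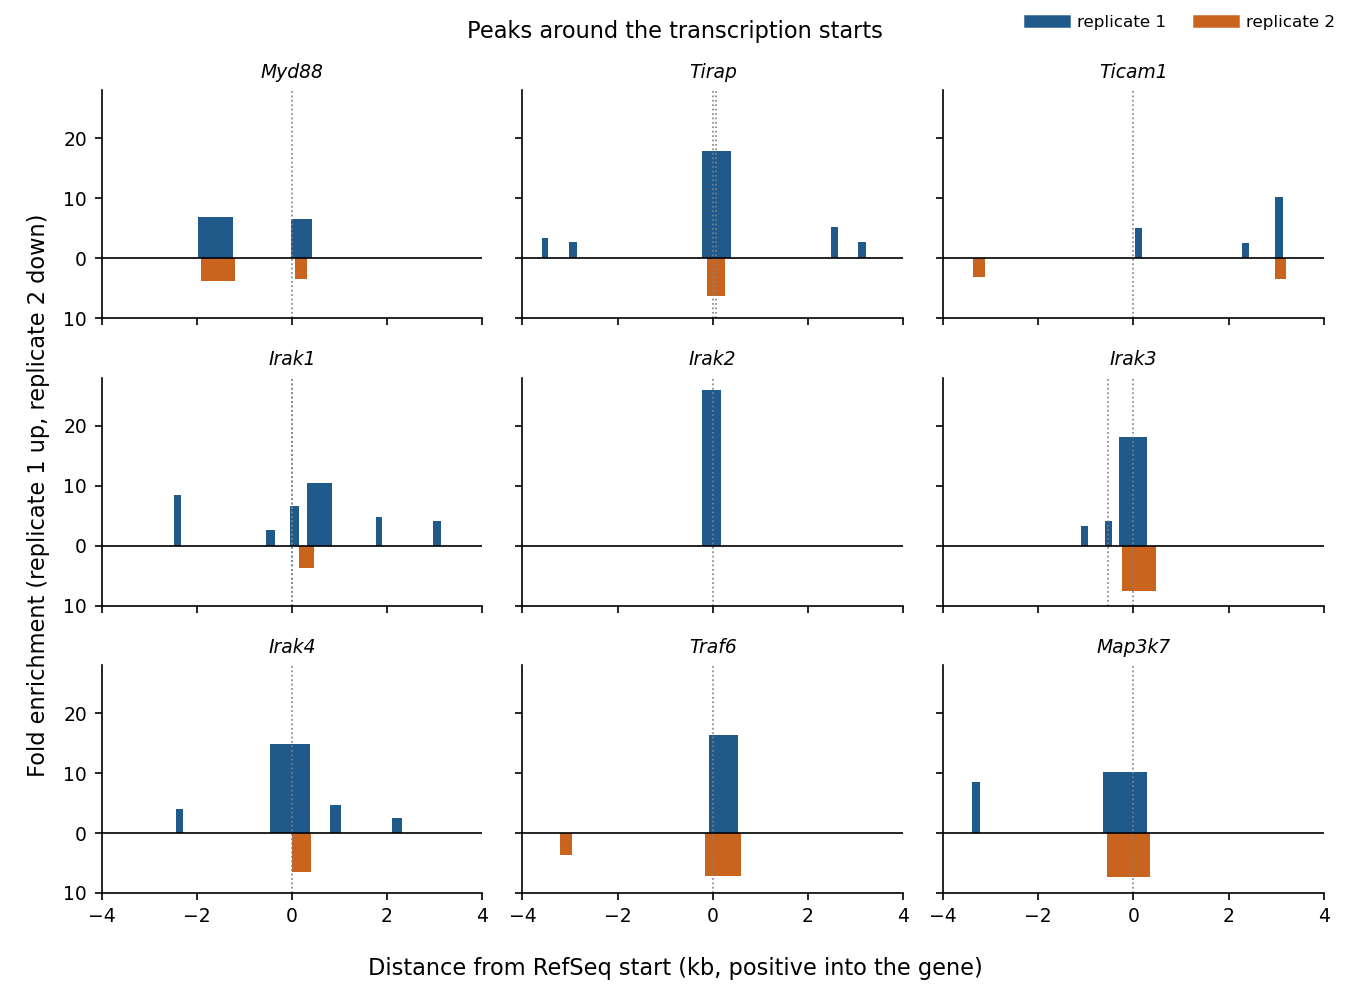
Peaks within 4 kb of the RefSeq start of the 9 members with a known start, as distance in kb with positive values into the gene. Bar width is the length of the peak and bar height its fold enrichment, with replicate 1 above 0 and replicate 2 below, and dotted lines mark annotated starts. Bars of both replicates meet at the starts of Tirap, Irak3, Irak4, Traf6 and Map3k7, and only a replicate 1 bar stands at Irak2.

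Among the kinase genes, Irak3 had the strongest replicate 2 peak of all members. Peaks of both replicates covered one of its 2 annotated starts (chr10:120201310-120201899 and chr10:120201126-120201831), with 18.1-fold enrichment and 99 fragments in replicate 1 and 7.56-fold and 49 fragments in replicate 2 (mean 12.8 ± 7.44, SD, n = 2). The summits were at -23 bp and 49 bp from this start, with negative values upstream, at the 99.1th and 97.4th percentiles of their lists. The start of a long non-coding RNA on the other strand, Gm38500, is 7 bp away and was covered too, so the peaks cannot be assigned to one of these starts. Over the gene (chr10:120141648-120202130, minus strand) and its flanks, these peaks included, replicate 1 listed 26 peaks and replicate 2 listed 5. Of the latter, 1 reached a −log10 q of 5. One further pair met near the 3′ end, at 7.39-fold and 3.53-fold, with an overlap of 45.9% of the replicate 1 peak.

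Irak4, the first kinase to join MyD88, also had its start covered in both replicates. The replicate 1 peak (chr15:94543206-94544049) had 14.9-fold enrichment and 106 fragments and spanned the starts of both Irak4 and the divergent gene Pus7l, which are 153 bp apart. The replicate 2 peak (chr15:94543659-94544061) had 6.48-fold and 32 fragments and covered the start of Irak4 but not that of Pus7l. It reached the Irak4 start, at 94543660, only with its edge. Summits were 272 bp and 275 bp inside Irak4, 3 bp apart. Irak4 nevertheless fell outside the count of overlapping pairs, because the overlap was 97.0% of the replicate 2 peak but 46.3% of the longer replicate 1 peak. Irak4 also held 2 replicate 1 peaks of 14.8-fold (55 fragments) and 14.3-fold (53 fragments) inside the gene that met no replicate 2 peak.

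Irak1, which encodes a kinase recruited by IRAK4, had 11 peaks in replicate 1 and 1 in replicate 2 over its span (chrX:74013914-74023921, minus strand) and flanks. Replicate 1 had 2 peaks next to its starts, of 10.5-fold with 76 fragments (chrX:74023088-74023607) and 6.58-fold with 47 fragments (chrX:74023770-74023953), the latter covering the starts. The replicate 2 peak (chrX:74023464-74023769, 3.72-fold, 24 fragments) filled the space between them and ended at the base before the second one began. It overlapped the first by 144 bp, or 27.7% of that peak and 47.1% of its own length. A miRNA gene, Mir5132, lies within this region (chrX:74023528-74023598), and Mir718 spans the starts. Signal of both replicates was thus present within 1 kb of the start, in peaks drawn with different edges.

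By the deposited fold of its strongest peak, Irak2 differed most between the replicates. Replicate 1 listed a peak of 26.0-fold with 117 fragments over its start (chr6:113638252-113638647, summit 45 bp inside, −log10 q of 127), at the 99.9th percentile of its list. Replicate 2 listed no peak there, and its nearest one ended 5292 bp upstream, outside the window (6.09-fold, 30 fragments), while the first one inside the gene began 13483 bp from the start. Of the 701 genes whose start was under a replicate 1 peak of at least 20-fold, 674 (96.1%) had a peak of each replicate within 1 kb of the start, and Irak2 was one of the others. That count asks for no overlap. Of the 603 replicate 1 peaks at least as strong as this one, at any place, 61.4% met a replicate 2 peak. By its strongest fold Irak2 ranked at or above 98.1% of genes in replicate 1 and 46.6% in replicate 2. With the genome-wide background term it ranked at or above 84.5% and 58.6%. Under that term the ranks of Map3k7 (29.9% and 69.9%) and Ticam1 (65.0% and 26.6%) lay further apart. Which of the libraries reflects the cells was not tested.

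Elsewhere over Irak2 (chr6:113638467-113695026, plus strand), 4 pairs met. The pairs inside the gene were weak, at 5.13-fold and 3.34-fold, 4.83-fold and 3.09-fold, and 5.40-fold and 4.40-fold in replicates 1 and 2. The last of these, 37104 bp from the start in replicate 1, had summits 6 bp apart. The strongest pair, 10.3-fold with 73 fragments and 4.80-fold with 34 fragments, covered the start of the downstream gene Tatdn2, with summits 727 bp and 27 bp inside that gene. The strongest overlapping peaks counted for Irak2 were therefore those at the start of Tatdn2.

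Traf6 and Map3k7, the ligase and the kinase that follow the IRAK proteins, each had overlapping peaks across the start with no end of another protein-coding gene within 1 kb. At Traf6 (chr2:101678420-101701668, plus strand) the peaks, chr2:101678335-101678947 and chr2:101678251-101679013, had 16.4-fold enrichment with 84 fragments and 7.25-fold with 41 fragments (mean 11.8 ± 6.44, SD, n = 2). The whole replicate 1 peak lay within that of replicate 2, with summits 192 bp and 43 bp inside the gene. The PU.1 words of the upstream sequence, at positions -161 and -106 from the start, lay under the replicate 2 peak. The replicate 1 peak began downstream of both words and held neither. Replicate 1 also listed peaks of 14.3-fold (53 fragments) and 14.0-fold (52 fragments) towards and beyond the far end of Traf6, and neither met a peak of replicate 2.

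At Map3k7 (chr4:31963492-32023470, plus strand) the replicates were closest in strength among the members with a covered start. The peaks, chr4:31963461-31964388 and chr4:31963559-31964463, had 10.1-fold enrichment with 41 fragments and 7.38-fold with 38 fragments (mean 8.75 ± 1.95, SD, n = 2). They were 928 bp and 905 bp long and overlapped by 830 bp, yet their summits were 431 bp apart, at -544 bp and -113 bp from the RefSeq start, where negative values are upstream. The strongest replicate 1 peaks of the gene were elsewhere, at 13.5-fold (50 fragments) and 13.2-fold (49 fragments), 23520 bp and 58469 bp from the start, and met no replicate 2 peak. The start peak was the strongest of the gene in replicate 2 but not in replicate 1.

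Over all members, 16 pairs of peaks met by at least 1 bp, which is 12.0% of the replicate 1 peaks and 51.6% of those of replicate 2. In the whole lists the shares were 9.49% and 53.8%. In 15 of the 16 pairs both the fold and the pileup were higher in replicate 1, with Ticam2 as the exception. For the 11 pairs with 50% of both lengths in common, the ratio of replicate 1 to replicate 2 fold had a median of 1.92 and ranged from 1.23 to 3.0. Over all 31253 such pairs of the lists the median ratio was 1.84 and 90.0% were higher in replicate 1, so the members' pairs resembled the rest. Summit gaps had a median of 72 bp in the members and 71 bp overall.

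**Figure D3:**
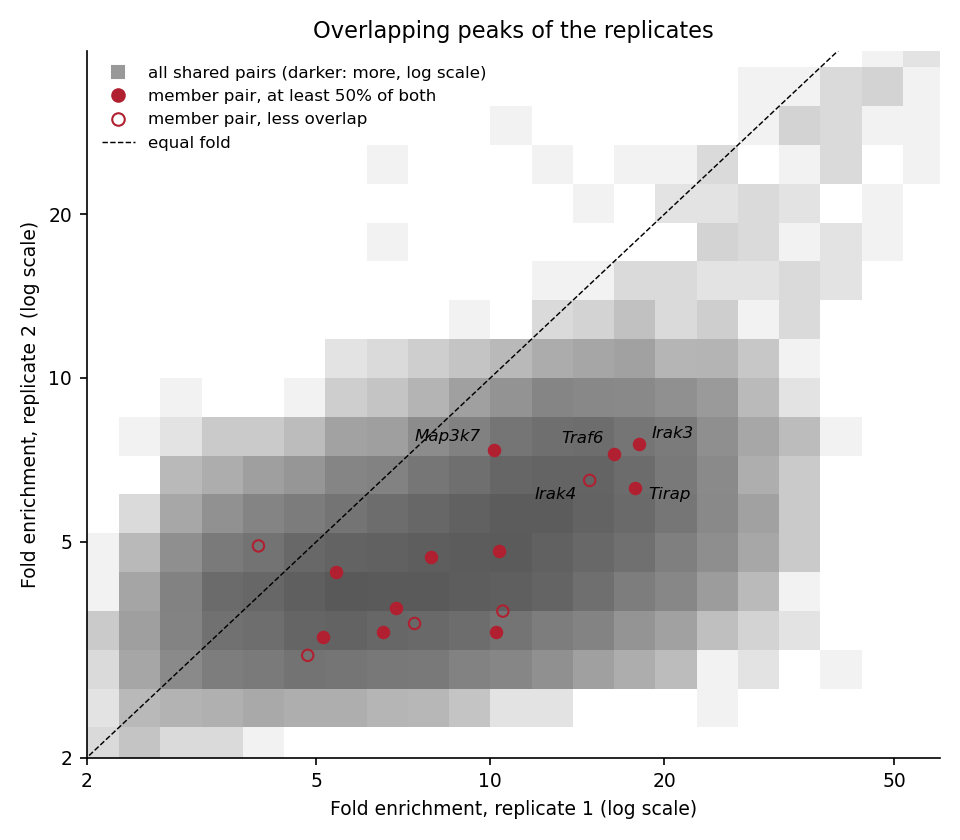
Fold enrichment of overlapping peaks in replicate 1 (horizontal) and replicate 2 (vertical), both on log scales, for the 16 member pairs (red) over all 31253 shared pairs (grey). Filled points share at least 50% of both lengths. The 5 pairs named, at the starts of Tirap, Irak3, Irak4, Traf6 and Map3k7, are the highest of the members in replicate 2, and 1 point (Ticam2) lies above the line of equal fold.

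Strength went with recovery in the other replicate. Member peaks of replicate 1 that met replicate 2 had a median fold of 9.0, and the 117 that did not had 4.76. In replicate 2 the medians were 4.53 and 3.48. Strong replicate 1 peaks without a partner were still common: of 17 member peaks of at least 10-fold, 9 met no replicate 2 peak, in 5 genes. Over the whole list, 36.2% of the replicate 1 peaks of at least 10-fold met one.

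The other genes of the pathway, 61 in 7 roles, all matched the annotation, and 39 (63.9%) had overlapping peaks, near the 63.5% of all genes. By role the counts were 4 of 12 Toll-like receptors, 3 of 6 accessory proteins, 8 of 10 ubiquitin and TAK1 complex partners, 5 of 6 IkappaB and TBK1 kinases, 5 of 7 MAP kinases, 7 of 10 transcription factors and 7 of 10 inhibitors. The receptors and their accessory proteins had lower counts than the cytosolic components, on numbers too small to read as a difference. The counts measure peaks, not expression: 5 of 10 macrophage marker genes and 3 of 5 T cell marker genes had overlapping peaks as well.

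**Figure D4:**
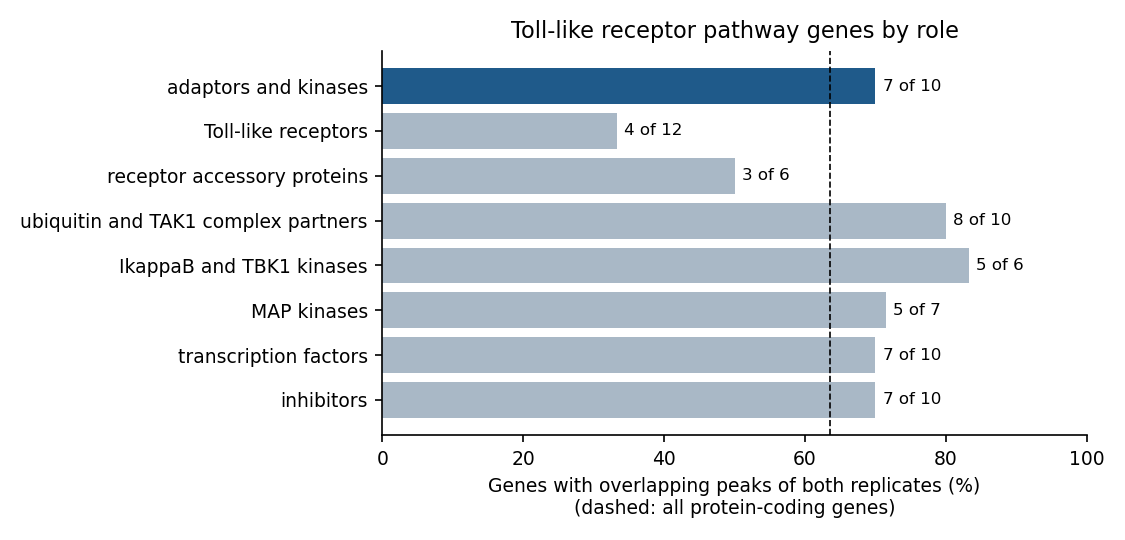
Share of genes in each role (horizontal axis, percent, bars from 0) with peaks of both replicates that overlap by at least 50% of both lengths, with counts beside the bars. The dashed line is the 63.5% of all protein-coding genes. The adaptors and kinases, at 7 of 10, stand near it, and the Toll-like receptors have the shortest bar.

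The strongest overlapping pair in each role was named by rank of fold in both lists. Among the receptors it was counted for Tlr6, which pairs with TLR2 to sense lipopeptides, at 11.0-fold and 6.71-fold in replicates 1 and 2. Its summits were at -9986 bp and -9929 bp from the RefSeq start, within 1 kb of an end of another gene, Fam114a1. Unc93b1, which carries nucleic acid-sensing receptors to endosomes, had 13.8-fold and 6.53-fold. Ripk1, a kinase on the TRIF branch, had 15.6-fold and 8.25-fold, with summits 244 bp and 252 bp inside the gene and an end of Serpinb6a within 1 kb.

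Further down the pathway, Map3k8, which encodes the kinase TPL2, had 19.0-fold and 8.64-fold. The pair of Map2k4, a kinase that activates JNK, was at 10.6-fold and 8.52-fold, with summits 611 bp and 370 bp inside the gene. Nfkb1, the gene of the NF-kappaB p50 subunit, had 13.8-fold and 6.67-fold. Cyld, which encodes an enzyme that removes the ubiquitin chains made by TRAF6, had 19.4-fold and 8.04-fold, with summits 361 bp and 90 bp inside. By strongest fold of any peak, Irak3 ranked at or above 84.8% and 89.9% of all genes in replicates 1 and 2, Traf6 77.5% and 86.5%, and Map3k7 60.1% and 88.1%. Tirap stood at 83.9% and 73.1% and Irak4 at 69.3% and 77.6%, while Irak1 (37.4% and 23.4%), Ticam1 (35.4% and 20.5%) and Ticam2 (31.2% and 46.3%) were below the middle in both. A wider window can only raise the strongest fold. Windows ran from 14.1 kb at Myd88 to 70.5 kb at Irak3, with a median of 27.3 kb over all genes. How far the ranks follow window length was not tested. The ranks also depend on the background term. With the genome-wide term Ticam1 stood at 65.0% and 26.6%, Irak1 at 54.1% and 32.7%, Tirap at 50.2% and 55.8%, and Map3k7 at 29.9% and 69.9%. Irak3, at 73.9% and 91.4%, and Traf6, at 61.5% and 77.6%, were above the middle with either term, as was Irak4, at 78.4% and 53.1%. Tirap was above it too, though barely in replicate 1 with the genome-wide term. The strongest replicate 1 folds rose to 23.5 at Ticam1, 20.4 at Irak1 and 28.3 at Irak4 under that term.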

How the data were processed

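Foxp3 CUT&RUN peaks of 2 libraries were analysed. The submitters' processing notes name CASAVA 1.4 and mm10, and for the aligner: not given in the sources used here. Peaks were called by the authors, per the file headers, with MACS 2.1.1.20160309 on each library alone, at a q cutoff of 0.01, with no control and all duplicates kept, so sites that yield fragments with any antibody can be listed. The deposited pileup is an unscaled signal (fragments at the summit), fold enrichment was deposited as a ratio to background, and significance was deposited as −log10 of p and q. The smallest pileup was 10 fragments in replicate 1 and 13 in replicate 2, so weaker sites are not listed.

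Peaks were matched here with Python 3.11.15 and pandas 2.3.3, a step tested on simulated data, to RefSeq genes (GRCm38.p6). Starts came from RefSeq promoter sequences and were known for 9 members. Exons and introns were not annotated. All members were named, and in each role of the pathway the gene with the highest mean list percentile of fold. Members, lists and rules were chosen with earlier results of these data known.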

Additional observations from a re-analysis of the deposited data

How the results depend on the processing

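The 4 counts (members with a peak of each replicate, with overlapping peaks and with a site at the same gene end, and pathway genes with overlapping peaks) stayed within 1.5 times their value under every alternative run except 1. With 10 members in all, no count of members could rise by more than that, so for these the rule could register only a fall. Leaving out replicate 1 gave 54 pathway genes, where 83.0% of all genes met the same rule. Leaving out replicate 2 gave 61, where 96.6% of all genes did. With both replicates 39 had overlapping peaks (63.5% of all genes), and counts from a single library ask for no overlap. Members with overlapping peaks were 10 with a 1 bp overlap (75.9% of all genes) and 8 with 50% of the shorter peak (73.7%). The latter alternative was added after the data were seen and brought in Irak4. Members with overlapping peaks were 6 with only peaks of −log10 q of at least 5 (59.4% of all genes). They were also 6 with the strongest replicate 1 peaks by fold in the number replicate 2 holds (50.3%). Without peaks near other genes' ends they were 6, and that share over all genes was not counted. The shares over all genes thus moved with the settings as well. Peaks counted per member moved in 5 of 20 values with the gene alone, 4 with 1 kb flanks and 7 with −log10 q of at least 5. A genome-wide background term, also added later, moved 6 of the 20 strongest folds by more than the SD of the gene's strongest folds in the replicates. These were in Myd88 (both replicates) and in Ticam1, Irak1, Irak3 and Irak4 (replicate 1). No paired analysis was possible because a single group has replicate numbers and no test was made. A site absent from replicate 2, as at the start of Irak2, had too little signal for the peak caller and may still hold fragments.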
